A study of Vitis vinifera with 74 samples.

Results

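Control leaves sampled 2 h after a mock spray were set against leaves of untreated vines in the grapevine (Vitis vinifera) cultivar Cabernet Franc. The members are the 4 control libraries of 2 h and the 8 pre-treatment libraries of the leaf table, 12 of the 74 samples of the series, chosen by their column names. The pre-treatment columns carry 4 names that occur 2 times each, and all 8 were used. Whether columns of the same name come from different vines is not stated, so the 8 are counted as libraries, not as vines. The vines were 2-year-old, self-rooted, potted plants in a greenhouse at 22 °C by day and 19 °C by night with at least 10 h of light, and the leaf at the base node was 95 days old. Control vines were sprayed to runoff at noon with deionized water holding 0.05% Tween-20, a mild detergent used as a surfactant. ABA vines, used below only for comparison, received 500 mg per litre (1.9 mM) of S-ABA, the natural form of the plant hormone abscisic acid, in the same solution. The pre-treatment leaves had received neither spray. The control and ABA groups of 2, 4, 24 and 48 h have 4 libraries each, and a pair of bud groups of another experiment is used at the end.

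In leaves, many transcripts follow the day, driven by light and by the circadian clock, an internal oscillator of about a day that anticipates dawn and dusk. Leaves are also known to change transcripts soon after wetting, touch or handling. A mock-sprayed control at a given time carries all of these together. The spray and the hours that passed since noon therefore cannot be told apart in the comparison of 2 h with pre-treatment. The clock time at which pre-treatment leaves were taken is not given in the sources used here.

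Transcripts were measured by QuantSeq, which sequences 1 short tag near the 3′ end of each polyadenylated transcript, so a count needs no correction for transcript length. Total counts ran from 1586426 to 2217761 in the 8 pre-treatment libraries and from 1321798 to 2414909 in the 4 control libraries of 2 h. Values are given as CPM, counts scaled to a common library total after TMM normalization. The identifiers of the count table have no gene name in the table at hand, so genes are described as groups by their response, 4 of them by identifier, and the labelled tissue could not be checked against leaf markers. Control 2 h replicate 1 was sequenced on a second flow cell, while the other 3 and all pre-treatment libraries were on the first. A pre-treatment library numbered 3 stood apart on the first principal component of the 12 libraries, at -74.3 against -31.4 to 44.0 for the others. It was kept, and the counts without these libraries are given beside the result. Within the groups, pairs of libraries differed by more than sampling noise, by a chi-square test over genes, whose statistic divided by its degrees of freedom was 3.85 to 18.5 before treatment and 8.06 to 16.2 at 2 h and would be 1 for sampling noise alone.

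Of 13378 genes tested, 751 were higher and 714 lower at 2 h than before treatment. Both directions thus took a similar share, 5.61% of the genes tested for the higher and 5.34% for the lower genes (edgeR's quasi-likelihood test over all 40 leaf libraries, Benjamini-Hochberg adjusted p under 0.05). The changes were mostly modest. The higher genes had a median log2 fold change of 0.90 and the lower genes of -0.79, while the median over all genes tested was 0.02. At least 2-fold differences were reached by 319 higher and 218 lower genes, and at least 4-fold differences by 52 and 20. Under 1.5-fold were 135 higher and 185 lower genes. Individual estimates carried a median standard error of 0.23 on the log2 scale for the higher and 0.20 for the lower genes. The last gene inside the threshold had an adjusted p of 0.0499 by edgeR with an absolute log2 fold change of 1.19, and the first outside had 0.0501 with 1.10. Without control 2 h replicate 1 the test called 834 genes, against 1465 with it. Without all 4 libraries of the second flow cell it called 1004, of which 889 were among the 1465, and without these and the pre-treatment library that stood apart it called 992. With the 12 libraries fitted alone it called 936, and tested against a fold of 1.5 it called 182, of which 102 were higher and 80 lower.

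**Figure D1:**
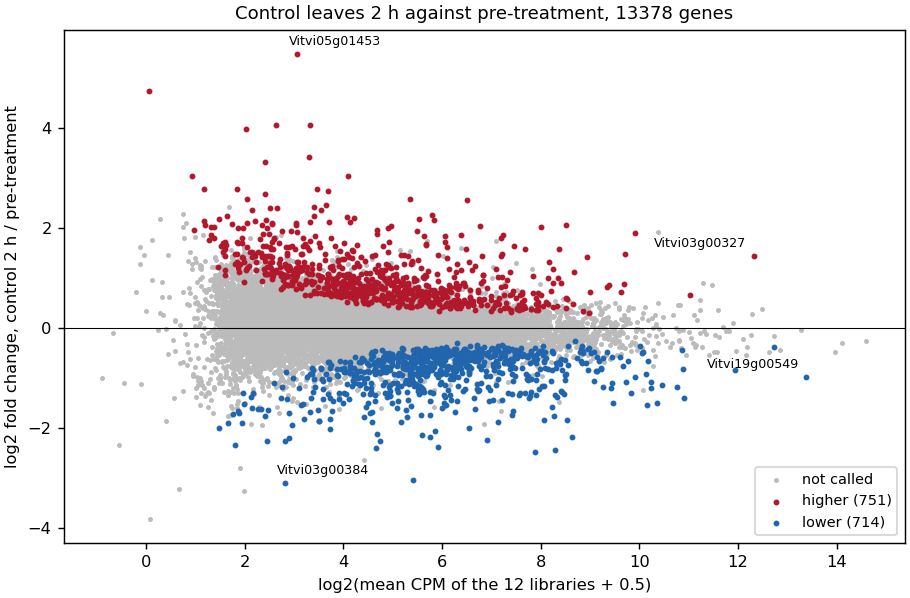
Log2 fold change of control 2 h against pre-treatment leaves (y axis) by mean level over the 12 libraries (x axis, log2 of CPM + 0.5) for 13378 genes, with 751 higher genes in red, 714 lower genes in blue and the rest in grey. Points spread on both sides of 0, and the lower genes lie further to the right, at higher levels.

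The libraries of the 2 groups did not overlap for 325 of the 751 higher and 363 of the 714 lower genes. Over all genes tested, 373 genes (2.79%) had all 4 libraries of 2 h above all 8 pre-treatment libraries, and 414 (3.09%) had all 4 below. The count at an unadjusted p under 0.05 was 3307 genes. Genes that were silent in one group hardly occurred. Only 5 genes had no count in any pre-treatment library and at least 10 counts in all over the 4 libraries of 2 h, the highest of them with 20 counts, and 1 of these passed the test. No gene with 20 or more pre-treatment counts was without a count at 2 h.

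The genes that fell and those that rose differed in level. Before treatment, the lower genes had a median of 69.9 CPM (quartiles 35.0 and 161) and the higher genes a median of 18.4 CPM (quartiles 6.30 and 47.3). At 2 h the medians were 40.1 CPM and 34.6 CPM. When all tested genes were divided into 3 equal groups by mean level over all 40 leaf libraries, the low group, up to 11.2 CPM, held 189 higher and 52 lower genes. The middle group held 266 and 197. The high group, from 37.0 CPM up, held 296 higher and 465 lower genes, or 6.64% and 10.4% of its members. The power to call a gene grows with its count, and the low group had the larger called changes, with medians of 1.40 and -1.58 against 0.68 and -0.68 in the high group. A gene of low level has few counts to lose, so a fall is harder to call there than a rise. The pre-treatment level is also part of the comparison that chose the genes. The difference in level between the lists thus follows in part from the choice, and it was not tested.

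The summed CPM of the called genes, as a share of the TMM-scaled library total, shifted accordingly. By this measure the 751 higher genes summed to 3.57% to 4.39% in the 8 pre-treatment libraries, and to 6.74%, 7.34%, 7.41% and 7.51% in the 4 libraries of 2 h. The 714 lower genes summed to 11.7% to 15.0% before treatment, and to 7.01%, 7.48%, 8.15% and 8.31% at 2 h. These values follow from how the genes were chosen and carry no test. Since CPM is relative to the scaled library total, they say nothing of the amount of RNA per cell.

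Vitvi05g01453 had the largest log2 rise among genes with at least 5 CPM on average whose libraries did not overlap. It was at 0 in 5 of the 8 pre-treatment libraries and at 1.02, 1.18 and 1.34 CPM in the other 3. At 2 h it was at 15.9, 16.4, 20.2 and 37.4 CPM, the highest being replicate 1 of the second flow cell. The mean rose from 0.442 ± 0.616 CPM (SD, n = 8) to 22.5 ± 10.1 CPM (SD, n = 4), a log2 fold change of 5.48 ± 0.59 (SE, adjusted p = 6.462e-08, edgeR). The fold rests on 7 counts before treatment and 205 at 2 h. This gene was thus nearly undetected before treatment and present in each library of 2 h. It reached 30.7 ± 16.8 CPM in control leaves at 4 h, 3.05 ± 3.00 CPM at 24 h and 0.127 ± 0.255 CPM at 48 h (SD, n = 4 each).

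Vitvi03g00327 had the largest rise in CPM by the same filter. Its pre-treatment libraries ran from 1070 CPM to 4241 CPM with a median of 3492 CPM, and the lowest was the library that stood apart. The libraries of 2 h were at 7105, 8341, 9696 and 10101 CPM, all above the highest pre-treatment value. Its mean went from 3244 ± 974 CPM (SD, n = 8) to 8811 ± 1364 CPM (SD, n = 4), a log2 fold change of 1.44 ± 0.20 (SE, adjusted p = 5.809e-06, edgeR). In controls it was at 9891 ± 1118 CPM at 4 h, 5306 ± 981 CPM at 24 h and 2086 ± 291 CPM at 48 h (SD, n = 4 each). The 48 h libraries, at 1761 to 2426 CPM, lay below the 7 other pre-treatment libraries, which ran from 2831 to 4241 CPM, and above only the library that stood apart. The difference of 48 h from pre-treatment did not pass the test (adjusted p = 0.2112, edgeR).

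Vitvi03g00384 had the largest log2 fall by the same filter, which required that the groups not overlap. The pre-treatment libraries ran from 5.36 to 13.8 CPM with a median of 8.78 CPM. The libraries of 2 h were at 0, 0.818, 1.32 and 1.53 CPM, and none reached the lowest pre-treatment value. The mean fell from 9.29 ± 3.50 CPM (SD, n = 8) to 0.916 ± 0.679 CPM (SD, n = 4), a log2 fold change of -3.11 ± 0.48 (SE, adjusted p = 2.917e-05, edgeR). This fold rests on 144 counts before treatment and 9 at 2 h. It stood at 1.89 ± 1.22 CPM in controls at 4 h, 3.56 ± 2.15 CPM at 24 h and 13.2 ± 4.32 CPM at 48 h (SD, n = 4 each).

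Vitvi19g00549 had the largest fall in CPM and was among the most abundant leaf transcripts. It ran from 8505 to 16466 CPM before treatment, with a median of 11773 CPM, and was at 5337, 6324, 6827 and 7198 CPM in the 4 libraries of 2 h. The groups did not overlap, which the choice of the gene required. The mean fell from 12789 ± 3087 CPM (SD, n = 8) to 6422 ± 807 CPM (SD, n = 4), a log2 fold change of -0.99 ± 0.18 (SE, adjusted p = 0.0002882, edgeR). Against a fold of 1.5 in place of no change, its adjusted p was 0.1481 in edgeR's glmTreat. Unlike the other 3 genes, whose 24 h mean lay nearer to their pre-treatment mean than their 4 h mean did, this gene was about as low at 24 h, at 6199 ± 1298 CPM, as at 4 h, at 6259 ± 1688 CPM. At 48 h it was at 11805 ± 1956 CPM (SD, n = 4 each). The difference between genes in this course was not tested.

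**Figure D2:**
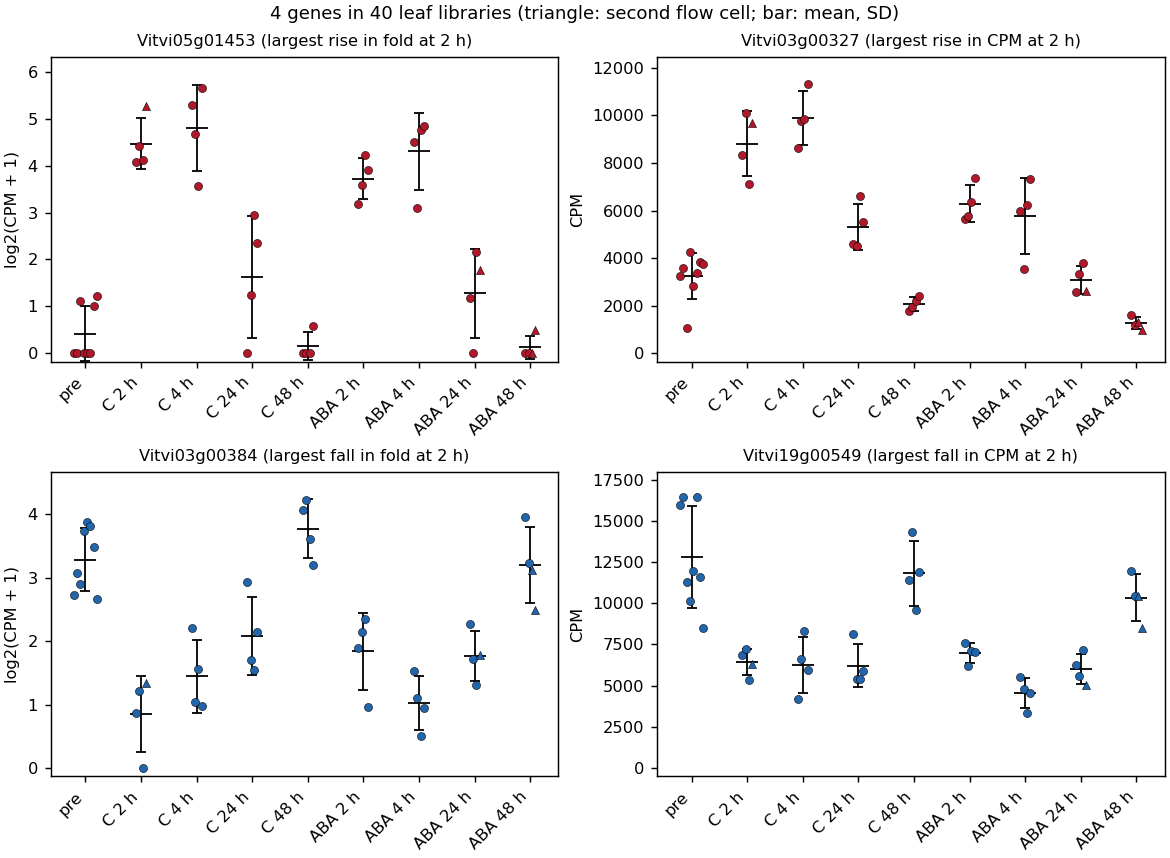
Level of the 4 genes in each of the 40 leaf libraries (y axis, log2 of CPM + 1 on the left and CPM on the right) by group (x axis, C for control), with triangles for libraries of the second flow cell and bars for the mean and SD. In each panel the 4 libraries of control 2 h lie on one side of the 8 pre-treatment libraries, as the choice of these genes required. The mean of control 48 h is nearer to the pre-treatment mean than to that of control 2 h.

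Between 2 h and 4 h, hardly any gene of the control leaves passed the same test. A single gene of 13378 (0.00747%) passed, lower at 4 h, and it was not among the 1465 genes. The median log2 difference of 4 h against 2 h was -0.06 for the 751 risen genes and 0.03 for the 714 fallen genes, close to the -0.01 of all genes. These medians use the 2 h libraries that chose the genes. At an unadjusted p under 0.05, edgeR counted 1251 genes and DESeq2 called 17 at its adjusted threshold. The count was 112 without control 4 h replicate 3, so the small number depends on that library.

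The later course of the same genes is given library by library, as the median log2 difference from the pre-treatment mean, which chose the genes and is shared by all groups. For the 751 risen genes the median was 0.77, 0.80, 0.86 and 1.01 in the 4 control libraries of 2 h, the highest being replicate 1 of the second flow cell. It was 0.72 to 0.82 at 4 h, 0.37 to 0.60 at 24 h and -0.00 to 0.13 at 48 h, against -0.10 to 0.19 in the 8 pre-treatment libraries. The groups of 2 h and 4 h overlapped with each other, 24 h lay below both, and 48 h lay within the pre-treatment range. For the 714 fallen genes the medians were -0.89 to -0.61 at 2 h, -0.82 to -0.55 at 4 h, -0.55 to -0.27 at 24 h and -0.11 to -0.00 at 48 h, against -0.15 to 0.16 before treatment. 

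**Figure D3:**
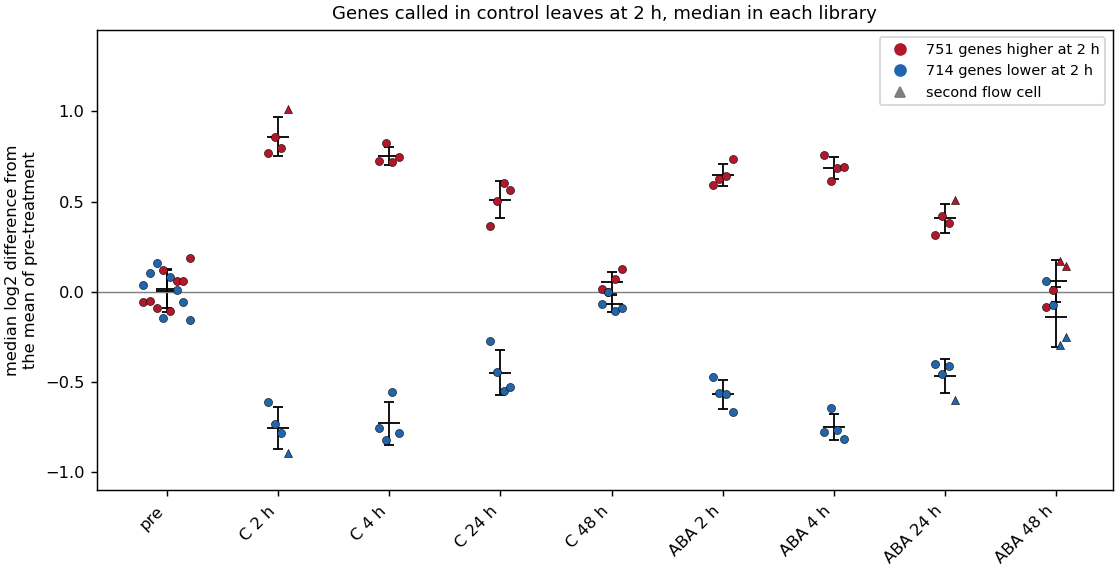
Median log2 difference from the pre-treatment mean (y axis) of the 751 genes higher at 2 h (red) and the 714 genes lower at 2 h (blue) in each of the 40 leaf libraries, by group (x axis, C for control), with triangles for the second flow cell and bars for the mean and SD. In control leaves the medians are farthest from 0 at 2 h and 4 h, nearer at 24 h (0.37 to 0.60 for the risen genes) and near 0 at 48 h. In ABA leaves the group means are also farthest from 0 at 2 h and 4 h, nearer at 24 h and nearest at 48 h. The ABA means are farther from 0 at 4 h than at 2 h, at 0.69 and 0.65 for the risen genes. For the fallen genes they are -0.75 at 4 h and -0.57 at 2 h. There the fallen genes at 48 h are at -0.29 and -0.25 in replicates 3 and 4, of the second flow cell, and at 0.06 and -0.07 in replicates 1 and 2.

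The same genes were then followed in comparisons whose libraries are none of the 12. The fit that called the genes used the spread of all 40 leaf libraries, so these comparisons and the choice of genes are not fully independent, and values from separate fits are given beside them. If the vines were sampled at the labelled hours after the noon spray, 24 h and 48 h fell at noon and 2 h and 4 h in the afternoon. All of these vines had been sprayed, but the hours since the spray differ together with the time of day. The time of day and the time since the spray therefore cannot be told apart in these comparisons either. In control leaves at 4 h against the mean of 24 h and 48 h, 571 genes (4.27% of those tested) were higher and 532 (3.98%) lower. Of the 751 genes that had risen at 2 h, 271 (36.1%) were higher and 1 was lower, with a median log2 difference of 0.46. Of the 714 genes that had fallen, 270 (37.8%) were lower and 1 was higher, with a median of -0.48. The median of all genes tested was 0.00. Read from the other list, the risen genes made up 47.5% of all genes higher in this comparison, and the fallen genes 50.8% of those lower. Genes with a change of at least 2-fold at 2 h were called in the same direction in 133 of 319 cases (41.7%) in the risen and 128 of 218 (58.7%) in the fallen list, with medians of 0.76 and -1.03. The number of calls over all genes was 593 without control 4 h replicate 4 and 710 without control 4 h replicate 2, against 1103 with both, and the called fallen genes were 175 without replicate 4. Against control 24 h alone, 67 risen and 70 fallen genes were called in the same direction, beside 92 higher and 102 lower among all 13378 genes tested. Against control 48 h alone these were 343 and 357, beside 767 higher and 753 lower among all genes. This split was chosen after seeing the data.

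Leaves sprayed with ABA gave a second such comparison, 2 h against the mean of ABA 24 h and 48 h. It called 1236 genes higher (9.24%) and 1167 lower (8.72%). Among the 751 risen genes 268 (35.7%) were higher and 23 lower, with a median log2 difference of 0.38. Among the 714 fallen genes 212 (29.7%) were lower and 26 higher, with a median of -0.28, where the median of all genes was -0.03. These counts are 21.7% of all higher and 18.2% of all lower genes of that comparison. The opposite calls, 23 and 26, were thus more numerous than the 1 and 1 of control leaves, but the difference between the sprays in this respect was not tested. The ABA 24 h and 48 h groups hold 3 of the 4 libraries of the second flow cell. With that flow cell left out and the same lists kept, 278 of the risen and 236 of the fallen genes were called in the same direction, beside 7.34% of all genes tested higher and 7% lower, with medians of 0.48 and -0.35. The opposite calls in this setting were 12 and 16, and 1 and 1 in control leaves. Against ABA 24 h alone, with all libraries kept, 121 risen and 94 fallen genes were called in the same direction, beside 534 higher and 634 lower among all 13378 genes tested.

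When the lists were called in a fit of the 12 libraries alone (461 risen and 475 fallen genes) and tested in a separate fit of the other 28 leaf libraries, a check added after seeing the data, no library served both steps. In control leaves at 4 h against the later times, 222 risen genes (48.2%) were higher and 1 was lower, with a median log2 difference of 0.57, and 218 fallen genes (45.9%) were lower and none higher, with a median of -0.62. Over all genes of that fit, 4.82% were higher and 4.04% lower. In ABA leaves at 2 h against the later times, 206 risen genes (44.7%) were higher and 8 lower, and 155 fallen genes (32.6%) were lower and 15 higher. Over all genes, 9.76% were higher and 8.82% lower there.

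**Figure D4:**
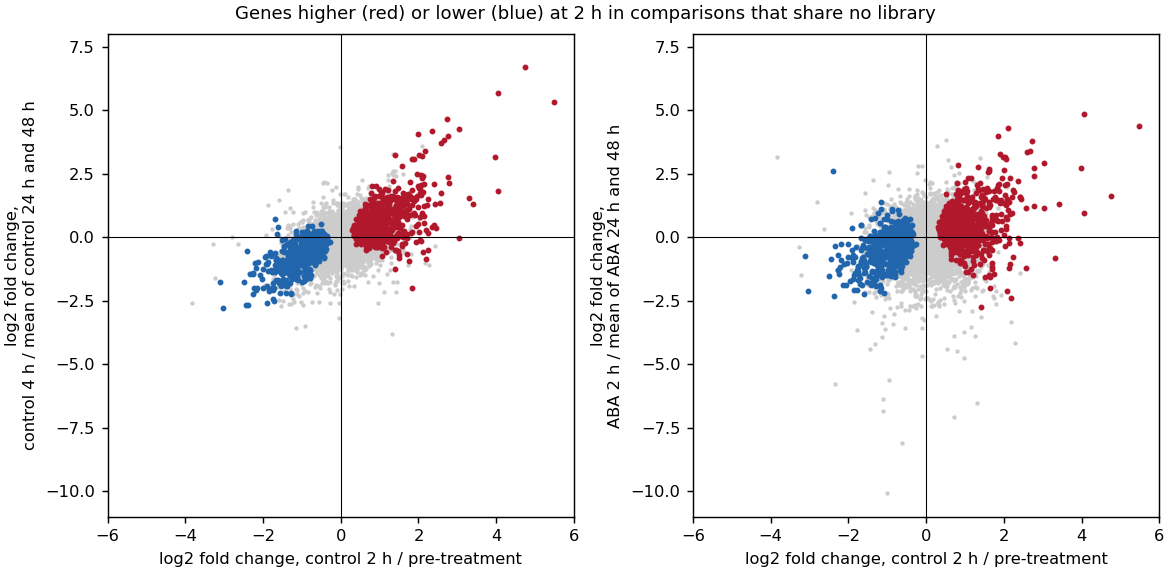
Log2 fold change of control 2 h against pre-treatment (x axes) and of 2 comparisons that share no library with it (y axes), control 4 h against the mean of control 24 h and 48 h on the left and ABA 2 h against the mean of ABA 24 h and 48 h on the right, one point per gene. Most risen genes (red) lie above 0 and most fallen genes (blue) below 0 on the y axes, with medians of 0.46 and -0.48 on the left and 0.38 and -0.28 on the right.

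The 24 h and 48 h leaves, both nominally at noon, also differed in these genes. This comparison was added after the difference between the 2 times had been seen. In controls, 119 genes (0.89%) were higher at 24 h than at 48 h and 80 (0.598%) lower. Of the 751 risen genes 98 (13.0%) were higher and none lower, with a median log2 difference of 0.44, and they were 82.4% of all higher genes. Of the 714 fallen genes 70 (9.80%) were lower and none higher, with a median of -0.39, and they were 87.5% of all lower genes. In ABA leaves 200 genes (1.49%) were higher and 144 (1.08%) lower at 24 h. There 119 of the risen genes were higher and 1 lower, with a median of 0.36, and 84 of the fallen genes were lower and none higher, with a median of -0.32. Fewer genes were called in controls when control 24 h replicate 2, 3 or 4 or control 48 h replicate 2 or 3 was left out, between 85 and 123 against 199. In ABA leaves the count was 165 to 222 without 24 h replicate 3 or 4 or 48 h replicate 3 or 4, against 344, and 607 without 48 h replicate 2. With the lists called anew each time, the called risen and fallen genes ranged from 49 to 105 and from 23 to 89 in controls when single libraries were left out, and from 78 to 130 and from 32 to 112 in ABA leaves. With the second flow cell left out and the same lists kept, the ABA leaves gave 73 of 751 and 42 of 714, beside 0.639% of all genes tested higher and 0.458% lower. Vitvi03g00327 was higher at 24 h by a log2 difference of 1.35 ± 0.25 (SE, adjusted p = 0.001657, edgeR) in controls, and Vitvi03g00384 was lower by -1.87 ± 0.43 (SE, adjusted p = 0.01547, edgeR). For Vitvi19g00549 the difference was -0.93 ± 0.20 (SE, adjusted p = 0.009566, edgeR). Vitvi05g01453 differed by 3.99 ± 1.22 (SE, adjusted p = 0.09273, edgeR) and did not pass.

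Few genes passed the test between the ABA spray and the mock spray at 2 h. It called 13 genes (0.0972%) between ABA and control at 2 h, 12 higher and 1 lower with ABA, and none of the 751 risen genes was among them. Of the 714 fallen genes 6 were higher with ABA. These 6 had log2 fold changes of -1.57 to -0.66 in control leaves at 2 h against pre-treatment and of -0.25 to 1.16 in ABA leaves, a contrast that follows in part from the choice, since the 6 were picked as low in the same control libraries that the sprays' test uses. Their difference between the sprays was 0.96 to 2.62 on the log2 scale (adjusted p of 0.01086 to 0.03904, edgeR). Over the whole lists, the median difference of ABA from control at 2 h was -0.18 for the risen and 0.17 for the fallen genes, against -0.01 for all genes. Both medians use the control libraries that chose the genes. Side by side, and against the shared pre-treatment libraries, the risen genes had a median of 0.90 in control and 0.65 in ABA leaves, and the fallen genes of -0.79 and -0.59. At an unadjusted p under 0.05 edgeR counted 1035 genes between the sprays, and DESeq2 called 32. The count was 4 to 6 without control 2 h replicate 1, 2 or 3 or ABA 2 h replicate 1 or 2, and 20 without ABA 2 h replicate 4.

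Of the 4 named genes none differed between the sprays at 2 h by this test. Vitvi03g00327 was at 6290 ± 788 CPM with ABA (SD, n = 4), against 8811 ± 1364 CPM in controls, a log2 difference of -0.49 ± 0.24 (SE, adjusted p = 0.6495, edgeR). Vitvi05g01453 was at 12.7 ± 4.14 CPM with ABA and Vitvi03g00384 at 2.80 ± 1.35 CPM (SD, n = 4 each). Vitvi19g00549 was at 6980 ± 591 CPM with ABA (SD, n = 4).

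The genes were also looked up in buds, another tissue and another experiment, in which single-node cuttings were sprayed with water. The earliest control there is 6 h, and the 3 columns of each bud group differed by about sampling noise (the same statistic was 1.02 to 1.17), so they were summed and no test is given. Among 15920 genes with at least 20 summed counts, 449 (2.82%) were at least 2-fold higher and 789 (4.96%) at least 2-fold lower at 6 h than before treatment. Of the 751 risen leaf genes 691 were measured, of which 19 were higher and 25 lower, with a median log2 difference of -0.05. Of the 714 fallen leaf genes 643 were measured, of which 40 were higher and 3 lower, with a median of 0.25, where the median of all genes was -0.01. The shares of the risen genes past 2-fold, 2.75% and 3.62%, were near or under those of all genes. Those of the fallen genes were 6.22% higher and 0.467% lower, and these genes leaned to higher values in buds. All genes here include those with as few as 20 summed counts and were not matched to the lists in level, so the shares are not a like comparison.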

How the data were processed

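The authors deposited raw counts per gene, 1 table for leaves and 1 for buds, with 42413 identifiers each. Per the labels' protocols the libraries were made with the QuantSeq 3′ kit and read on a NextSeq500 at 85 bp for leaves, each library in triplicate. FastQC, STAR and DESeq2 are named in the submitters' processing notes, without versions. The genome build, the annotation, the strand setting and the treatment of tags shared by gene copies are not stated in the labels, so genes with near-identical copies or antisense partners are uncertain. The RefSeq gene table at hand holds 0 of these identifiers, so gene lists could not be formed and no sequence is shown.

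All 40 leaf libraries were fitted with edgeR 4.0.16 (R 4.3.3, TMM, filterByExpr with a minimum count of 10, a mean for each of 9 groups), leaving 13378 genes with 99.4% of the leaf counts. A gene is called when its edgeR p, adjusted by Benjamini-Hochberg over all tested genes, is under 0.05. Standard errors are the log2 fold change divided by the square root of the test's F. CPM are TMM scaled, and log2 CPM use a prior count of 2. The labels do not tie libraries to vines, so p-values reflect only how much these libraries vary, which may be partly technical. Total counts of 1321798 to 2414909 per library limit what can be seen in genes of low level. The procedure was tested on simulated data. Alternatives include DESeq2 1.42.0. The members, lists and named genes were chosen with earlier results of these data known. Without gene names the rule for named genes was, per direction, the largest log2 fold change and the largest CPM difference among called genes with at least 5 CPM on average and no overlap between groups (295 higher and 358 lower genes were eligible).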

Additional observations from a re-analysis of the deposited data

Results flagged for a closer look

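In groups of 4 to 8 libraries, a library far from the others was looked for in 83 sets of values, of which chance alone would mark about 1 in 20, and 5 were found. In pre-treatment leaves Vitvi03g00327 was at 1070 CPM in 1 library numbered 3, against 2831 to 4241 CPM in the other 7; this is the library that stood apart on the first principal component. Total counts were 1321798 in control 2 h replicate 4, against 2238365 to 2414909 in the other 3. The CPM of the genes that fell at 2 h summed to 8.98% of the TMM-scaled library total in control 4 h replicate 3, against 7.23% to 7.51% in the other 3. Vitvi05g01453 was at 0.421 CPM in 1 ABA library of 48 h and at 0.510 CPM in 1 control library of 48 h, with 0 in the other 3 of each group, which is 1 count in each case. A difference between the sprays was found by the test of ABA against control at 2 h for 6 of the 714 genes that fell in control leaves, beside 13 of all 13378 genes tested (0.0972%). The list and the test share the control libraries of 2 h, and the 13 became 4 to 6 when any 1 of control 2 h replicates 1, 2 and 3 or ABA 2 h replicates 1 and 2 was left out.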

How the results depend on the processing

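The count of 1465 genes at 2 h was 936 when only the 12 libraries were fitted, 919 with a replicate block in that fit and 182 when tested against a fold of 1.5, and it ranged from 834 to 1537 when single libraries were left out. The replicate numbers did not pair the samples (r of -0.15 to 0.04 between same-numbered libraries, and no library was closest to its own number), so the block is only given here. The count between 2 h and 4 h was 0 with flow cell as a term, with the second flow cell left out, and with the pre-treatment library that stood apart also left out, 12 without a count filter, 17 with DESeq2, and 0 to 112 when single libraries were left out. ABA against control at 2 h gave 27 without a count filter, 32 with DESeq2 and 4 to 20 over single libraries left out. Control 24 h against 48 h gave 305 without the second flow cell, 362 with the pre-treatment library that stood apart also left out, 342 with DESeq2 and 85 to 222 over single libraries. ABA 24 h against 48 h gave 151 without the second flow cell, 172 with that pre-treatment library also left out, and 165 to 607 over single libraries.

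Control 4 h called 194 genes against 24 h alone and 593 to 1251 over single libraries left out, and ABA 2 h called 1168 against 24 h alone. The lists of risen and fallen genes were called anew in each setting, so the medians below are not of the same genes unless stated. Leaving out the second flow cell removes control 2 h replicate 1, which shortened the lists from 751 and 714 to 510 and 494 genes, and no library of control 4 h, 24 h or 48 h. For the risen genes, the median of control 4 h against later times was 0.57 with the second flow cell left out, 0.52 without a count filter, 0.58 with the pre-treatment library that stood apart also left out, 0.24 against 24 h alone, 0.68 against 48 h alone and 0.42 to 0.61 over single libraries. For the fallen genes these were -0.60, -0.63, -0.65, -0.29, -0.66 and -0.68 to -0.44. Genes called in the same direction were 67 and 70 against 24 h alone, and fallen ones 175 to 293 over single libraries. In ABA leaves the risen genes' median was 0.58 with the second flow cell left out, 0.60 with that pre-treatment library also left out, 0.48 with the second flow cell left out and the same lists, 0.22 and 0.52 against 24 h and 48 h alone and 0.32 to 0.59 over single libraries. The fallen genes' median was -0.47 and -0.50 for the first 2 of these settings, -0.42 with flow cell as a term, -0.38 without a count filter, -0.12 and -0.45 against 24 h and 48 h alone and -0.41 to -0.23 over single libraries, and 121 and 94 genes were called against 24 h alone. With lists from the 12 libraries alone and a fit of the other 28, the medians were 0.57 and -0.62 in control and 0.54 and -0.39 in ABA leaves.

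The median of the risen genes at 4 h against 2 h, -0.06, changed sign to 0.026 when the second flow cell was left out, to 0.027 with the pre-treatment library that stood apart also left out and to 0.033 without control 2 h replicate 1. The causes were not tested. The settings with that pre-treatment library left out, with the same lists or with lists from the 12 libraries, and those against 24 h or 48 h alone, were chosen after seeing the data. The 4 named genes kept their direction under all alternatives run.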
